A study of Mus musculus with 21 samples.

Results

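The AP-1 and Egr immediate-early genes described here are Fos, Fosb, Fosl1, Fosl2, Jun, Junb, Jund, Egr1, Egr2 and Egr3. They were found by their symbols in the table of RNA-seq read counts per gene, and all 10 were present among its 24047 genes. The cells were SMB21, a mouse cell line of sonic hedgehog (SHH) medulloblastoma, a tumour of the cerebellar granule lineage. SMB21 is 1 line, so cultures of it are no independent tumours. In a drug experiment, cells were given quisinostat, an inhibitor of histone deacetylases (HDACs) labelled JNJ, or its solvent DMSO. They were taken after 2 h or 24 h, which makes the groups DMSO 2 h, JNJ 2 h, DMSO 24 h and JNJ 24 h. In a hairpin experiment, short hairpin RNAs were delivered by virus, and cells were selected with puromycin. Its groups are shHdac1, shHdac2 and the control shLuc, whose hairpin targets luciferase. All 3 hairpin groups, the control included, carry virus and saw puromycin. The sources used here do not give the dose of JNJ, the number of hairpins for each target or the time after infection. Each of the 7 groups has 3 libraries, named here by the replicate numbers of the labels.

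Immediate-early genes are transcribed within minutes of a stimulus, from promoters that hold serum response factor, ETS and cyclic AMP response element factors ready, and need no new protein for it. Fos and Jun proteins pair through leucine zippers into the AP-1 factor: Jun proteins pair with each other or with Fos proteins, and Fos proteins need a Jun partner. Egr proteins are zinc-finger factors that bind GC-rich sites and induce the Nab co-repressors that restrain them. In neurons and their precursors these genes are widely used as marks of recent stimulation. JNJ blocks the enzymes that take acetyl groups off histones, and Hdac1 and Hdac2 encode class I members of that family.

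Counted reads ranged from 23094799 to 39341784 per library, and levels are given as CPM, counts relative to library size on 1 scaling of all 21 libraries. The hairpins lowered their targets. Hdac1 stood at 28.5 to 32.6 CPM in shHdac1 against 88.8 to 101 CPM in shLuc, and Hdac2 at 47.9 to 54.3 CPM in shHdac2 against 299.6 to 347 CPM in shLuc. The 10 markers of the granule lineage and SHH medulloblastoma summed to 1181 to 2199 CPM in every library, and the 6 immune markers to 3.39 CPM at most. Sums were 105 to 467 CPM for 5 astrocyte markers, 8.45 to 244 CPM for 6 oligodendrocyte markers, 3.28 to 29.1 CPM for 6 fibroblast and mural markers and 0.967 to 13.1 CPM for 5 endothelial markers. With JNJ, the granule list stood lower than with DMSO (1181 to 1617 against 1935 to 2195 CPM at 2 h, 1278 to 1539 against 1994 to 2183 CPM at 24 h). At 24 h the astrocyte list stood lower (105 to 138 against 214 to 269 CPM). The sum of the fibroblast and mural list stood higher (12.6 to 29.1 against 5.68 to 9.57 CPM). Of its 4 tested markers, 1 was called higher and 1 lower with JNJ at 24 h, where 33.1% of all genes were called. Against shLuc, the granule list stood lower in shHdac1 (1787 to 1919 against 2040 to 2199 CPM) and in shHdac2 (1908 to 1992 CPM). The astrocyte list stood higher in shHdac1 (301 to 416 against 256 to 285 CPM) and the endothelial list in shHdac2 (7.88 to 8.39 against 2.00 to 7.53 CPM). The other lists overlapped between each of these groups and its control. The part of these shifts in the members' values was not tested. Within each hairpin group, replicates 1 and 2 were nearly alike. The median chi-square of a gene between them was 1.000 in shLuc, 0.765 in shHdac1 and 2.28 in shHdac2, where sampling alone gives 0.455. The other pairs of libraries within a group had 8.52 to 71.5. Replicates 1 and 2 of the hairpin groups may therefore not be separate cultures, and hairpin results are given with the 3 libraries and with these 2 summed. For all groups, the labels do not say whether libraries came from separate cultures, so p-values measure the spread between libraries.

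The promoters of Fos, Junb and Jun are shown because Fos varied widely between the 2 h libraries and because Junb and Jun were called in opposite directions with JNJ. RefSeq windows of the build GRCm38.p6 gave a sequence for 7 of the 10 members. The windows for Egr1, Egr3 and Fosl1 were not used here. Each run holds the 250 bases before the annotated start site on the gene's strand. Capitals mark, in Fos, the cyclic AMP response element core TGACGT, which begins at position -66 from the start site, and the TATA box TATAAA at -33. In Jun they mark the variant element TGACATCA at -45. The Junb run holds none of the motifs searched. The build differs from that of the counts (mm9).
Fos promoter, chr12:85473640-85473889, plus strand: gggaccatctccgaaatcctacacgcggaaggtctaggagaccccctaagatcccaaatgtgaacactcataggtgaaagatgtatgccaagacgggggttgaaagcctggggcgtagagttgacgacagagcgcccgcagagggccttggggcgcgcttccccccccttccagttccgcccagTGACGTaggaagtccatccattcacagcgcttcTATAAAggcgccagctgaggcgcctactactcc
Junb promoter, chr8:84978749-84978998, minus strand: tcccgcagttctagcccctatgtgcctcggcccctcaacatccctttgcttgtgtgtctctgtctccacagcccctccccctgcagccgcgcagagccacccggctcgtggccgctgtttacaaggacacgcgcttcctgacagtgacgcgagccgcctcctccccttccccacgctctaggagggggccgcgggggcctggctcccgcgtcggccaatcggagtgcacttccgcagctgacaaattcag
Jun promoter, chr4:95052223-95052472, minus strand: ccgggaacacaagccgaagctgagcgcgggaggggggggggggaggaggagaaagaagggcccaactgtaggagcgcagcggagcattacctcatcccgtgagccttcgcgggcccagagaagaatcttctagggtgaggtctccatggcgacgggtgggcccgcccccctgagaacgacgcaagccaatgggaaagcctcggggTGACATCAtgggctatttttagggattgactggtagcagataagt

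The motifs were searched on both strands in windows of 300 bases, from 250 before to 50 after the start. TGACGT was found for 2 of the 7 members, Fos and Egr2, against 7.51% of all 32851 windows. TGACNTCA, which overlaps it where N is G, was found for Jun and in 8.83% of all windows. The serum response element named CArG box was found for Egr2, as CCTTTTTTGG in the window of 1 annotated start and as CCATATATGG in the windows of 3 others, and in 1.63% of all windows. Egr2 has 5 windows and the other 6 members 1 each, so a match for a member is not the same measure as a share of single windows. The Egr site GCGNGGGCG was found for Fosb and Fosl2 and in 5.55% of all windows. The AP-1 site, searched only as the pattern TGANTCA, was found for none of the 7 members, and in 7.81% of all windows. The longer element TGACATCA of Jun cannot match that pattern. TATAAA was found for Fos and Junb and in 13.6% of all windows. In Fos it begins at -33, but in Junb at position 1, the annotated start itself and outside the run shown. Bases farther upstream were not searched, nor were Egr1, Egr3 and Fosl1, so an absent match holds for these windows only. A match is a description of these letters, and no binding was measured here.

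The members differed widely in level. Per kilobase of exon sequence (CPM per kb), Jund stood highest and Jun second in all 7 groups. In DMSO 24 h the means were 64.4 for Jund, 28.9 for Jun, 4.64 for Fosl2, 1.90 for Junb and 1.18 for Egr1. The libraries of these 5 genes did not overlap, so this order held in each library. Below them came Egr2 at 0.950, Fos at 0.892 and Egr3 at 0.739 CPM per kb, whose libraries overlapped with those of their neighbours. Fosb followed at 0.230 and Fosl1 at 0.0182 CPM per kb. In JNJ 2 h the order was Jund (102), Jun (25.6), Junb (19.8), Fos (12.7), Fosb (11.2), Egr1 (7.58), Fosl2 (3.49), Egr3 (1.64), Egr2 (1.46) and Fosl1 (0.283 CPM per kb). Fosl1, which encodes Fra-1, was the scarcest member in every group. Its counts in replicates 1, 2 and 3 were 0, 2 and 15 in DMSO 2 h, 10, 6 and 42 in JNJ 2 h, 0, 1 and 3 in DMSO 24 h, and 3, 2 and 11 in JNJ 24 h. No hairpin library had more than 3 counts of Fosl1, and the gene was not tested there. A count of 0 allows up to 3 counts, 0.0768 to 0.126 CPM at these depths.

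**Figure D1:**
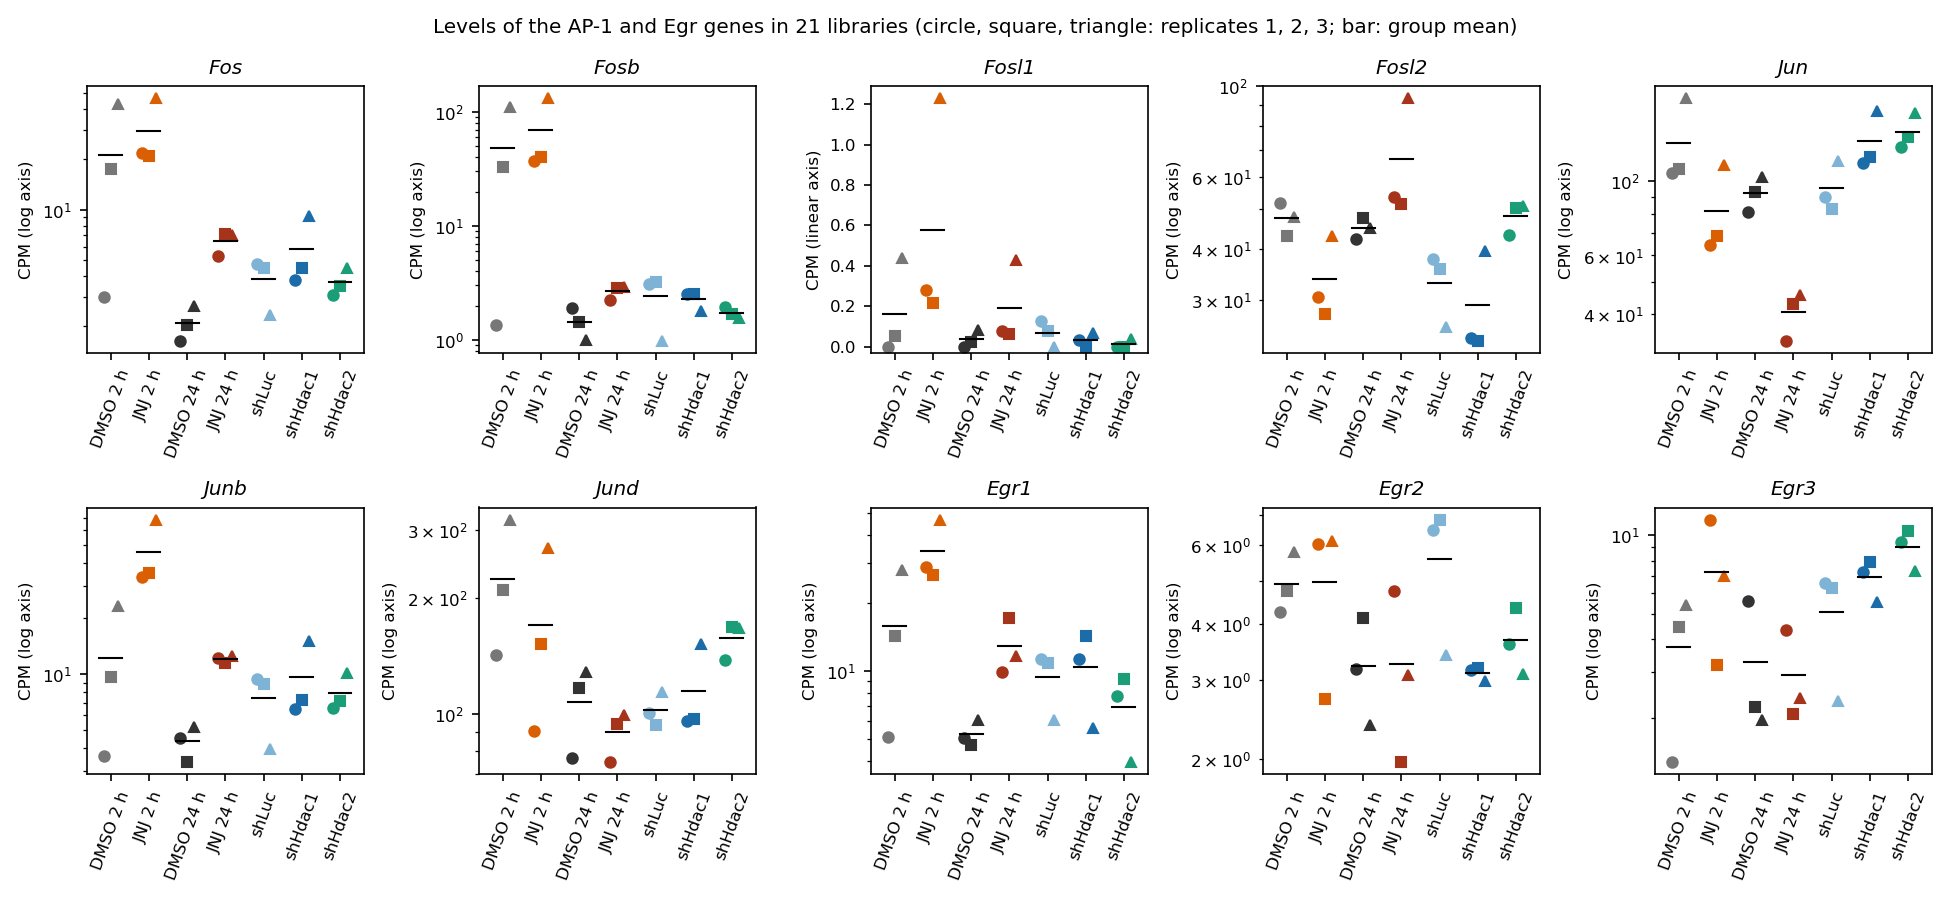
Level of each member (CPM, log axis except for Fosl1, whose axis is linear) in the 21 libraries by group. Symbols are replicates 1, 2 and 3 and bars are group means (n = 3). Fos, Fosb, Junb and Egr1 are spread widely within DMSO 2 h, where replicate 1 lies close to the DMSO 24 h libraries.

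The 2 h libraries differed among themselves before any drug was compared. Fos stood at 2.98, 17.5 and 43.0 CPM in DMSO 2 h replicates 1, 2 and 3. Fosb, whose protein is a partner of Jun like Fos, stood at 1.35, 33.1 and 109.8 CPM there. Junb was at 3.64, 9.65 and 23.3 CPM, and Egr1 at 5.11, 14.3 and 28.0 CPM. In each of these genes replicate 1 was the lowest and replicate 3 the highest. The ratio of the highest to the lowest library was 81.4 for Fosb, 14.4 for Fos, 6.38 for Junb and 5.48 for Egr1, while the median of 12556 genes was 1.45. These ratios lie at the 99.8, 99.4, 98.5 and 98.1 percentiles of those genes. Fosl2 (1.21) and Egr2 (1.37) were below that median.

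Within DMSO 2 h, the same library order ran through most of the set. DMSO 2 h replicate 1 was the lowest of its group for 9 of the 10 members and for 28 of 39 other immediate-early genes, against 37.5% of all genes. Replicate 3 was the highest for 9 members and for 26 of the 39, against 40.3% of all genes. In JNJ 2 h, replicate 3 was the highest for 9 members and for 31 of the 39, against 39.2% of all genes. The lowest there was replicate 1 for 4 members and 24 of the 39, against 34.7% of all genes. It was replicate 2 for 6 members and 9 of the 39, against 27.5% of all genes. Against the mean of DMSO 24 h, Fosb was 0.937 times in DMSO 2 h replicate 1 and 76.3 times in replicate 3. Fos was 1.42, 8.33 and 20.5 times that mean. The summed level of 10 heat-shock genes was 4108, 2879.7 and 4804 CPM in DMSO 2 h replicates 1, 2 and 3, so replicate 2 was the lowest there. The part of any other difference between these libraries in the members' levels was not tested.

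**Figure D2:**
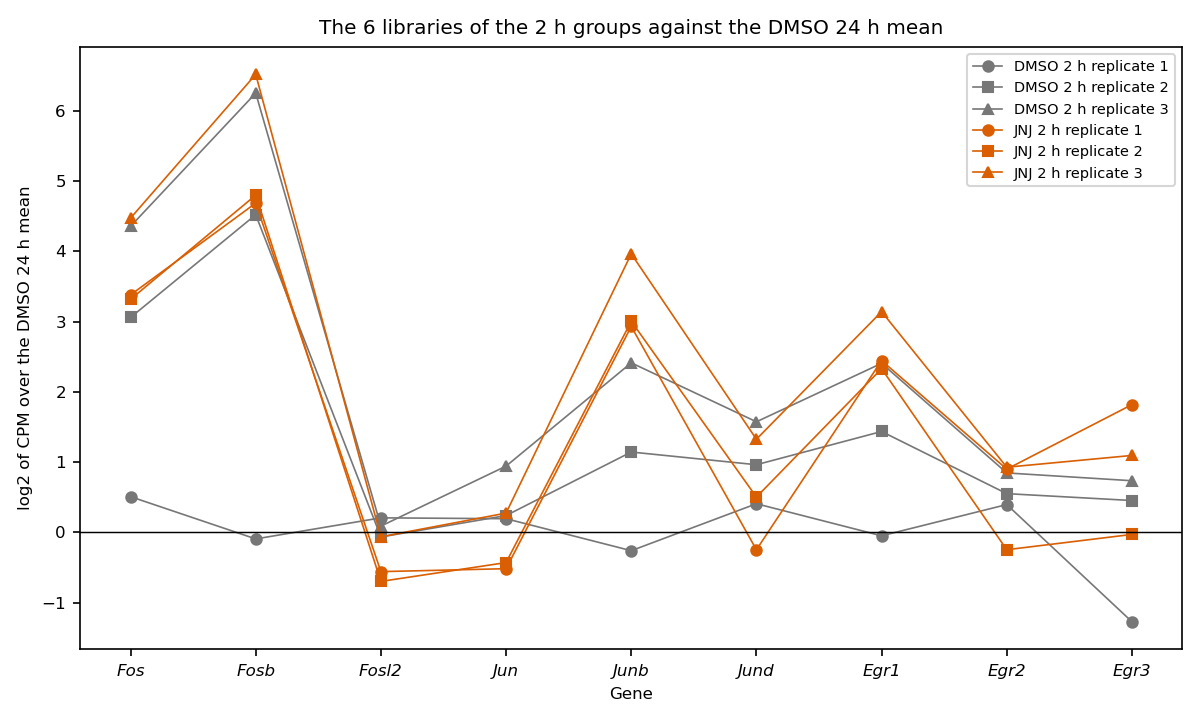
Each line is 1 of the 6 libraries taken at 2 h, drawn across 9 members as the log2 ratio of its CPM to the DMSO 24 h mean (lines only join points of a library). DMSO 2 h replicate 1 lies near 0 for Fos, Fosb, Junb and Egr1, where the other 5 libraries lie above it.

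After 2 h with JNJ, Junb rose and no other member passed the test. Junb, which encodes a Jun protein that often restrains c-Jun, stood at 33.3, 35.1 and 68.2 CPM in JNJ 2 h. All 3 libraries lay above those of DMSO 2 h (3.64 to 23.3 CPM). The change was 3.76-fold (log2 1.91, SE 0.50, edgeR quasi-likelihood test with Benjamini-Hochberg adjustment, adjusted p = 0.0233). Junb was thus 1 of 10 members called, where 13.7% of all 14467 tested genes were called, 9.11% upward and 4.59% downward. The call was lost without DMSO 2 h replicate 2 (log2 1.74, adjusted p = 0.0944) and without JNJ 2 h replicate 3 (log2 1.51, adjusted p = 0.0529). It was also lost in a fit of the 2 h libraries alone (log2 1.91, adjusted p = 0.0925, with 4.79% of all genes called). In bulk RNA, a change in the share of cells that express a gene and a change in RNA per cell cannot be told apart.

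Among the Fos family at 2 h, Fos stood at 21.9, 20.9 and 46.6 CPM with JNJ. These libraries overlapped with DMSO 2 h replicate 3 and lay above replicate 2 and replicate 1 (log2 0.50, 95% confidence interval -0.84 to 1.85, adjusted p = 0.63). Fosb stood at 37.1, 40.1 and 132 CPM with JNJ, which also overlapped (log2 0.55, interval -1.38 to 2.47, adjusted p = 0.724). Without DMSO 2 h replicate 1, the estimates were -0.04 for Fos and -0.06 for Fosb, and without DMSO 2 h replicate 3 they were the largest of any library left out, 1.50 and 1.98. Fosl2, which encodes Fra-2, stood at 30.5, 27.7 and 43.0 CPM with JNJ and at 51.9, 43.0 and 47.8 CPM with DMSO (log2 -0.49, SE 0.23, adjusted p = 0.184). Fosl1 had an adjusted p of 0.309 from the counts given above.

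Of the other Jun genes at 2 h, Jun stood at 64.5, 68.5 and 112 CPM with JNJ and at 106, 109 and 177 CPM with DMSO. The groups overlapped through JNJ 2 h replicate 3, and the change was not called (log2 -0.67, SE 0.25, adjusted p = 0.0888). Without that library Jun was called lower (log2 -0.96, adjusted p = 0.0126), as 22.7% of all genes were called. Jund, the Jun gene with the steadiest expression in most tissues, stood at 90.4, 152 and 269 CPM with JNJ and at 142, 209 and 319.6 CPM with DMSO (log2 -0.39, SE 0.36, adjusted p = 0.509).

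Of the Egr genes at 2 h, Egr1 stood at 28.8, 26.6 and 46.7 CPM with JNJ. DMSO 2 h replicate 3, at 28.0 CPM, lay among these values, and the change was not called (log2 1.11, SE 0.45, adjusted p = 0.124). Without DMSO 2 h replicate 3 it was called (log2 1.77, adjusted p = 0.0215), as 10.3% of all genes were. Egr2, known for its role in Schwann cells and the hindbrain, stood at 6.02, 2.72 and 6.14 CPM with JNJ and at 4.25, 4.73 and 5.80 CPM with DMSO (log2 0.02, interval -0.85 to 0.88). Egr3 stood at 11.5, 3.19 and 6.96 CPM with JNJ and at 1.35, 4.46 and 5.42 CPM with DMSO (log2 0.95, SE 0.59, adjusted p = 0.311). Libraries of both genes overlapped between the groups.

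After 24 h with JNJ, Jun fell, and Junb and Egr1 rose. These were 3 of 10 members called, where 33.1% of all genes were called (18.1% upward, 15.1% downward), so the share of members was close to that of all genes. Jun, the c-Jun gene, stood at 33.3, 42.9 and 45.7 CPM with JNJ and at 80.8, 92.7 and 103 CPM with DMSO. Every JNJ library lay below every DMSO library, with a 2.26-fold fall (log2 -1.17, SE 0.25, adjusted p = 0.00333). The call of Jun held when any 1 library of these groups was left out (adjusted p 0.00725 to 0.0160). Junb stood at 12.2, 11.5 and 12.6 CPM with JNJ and at 4.55, 3.35 and 5.20 CPM with DMSO (2.79-fold, log2 1.48, SE 0.50, adjusted p = 0.0363). Egr1 stood at 9.88, 17.2 and 11.7 CPM with JNJ and at 5.07, 4.71 and 6.08 CPM with DMSO (2.46-fold, log2 1.30, SE 0.46, adjusted p = 0.0455). Neither gene's groups overlapped.

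The calls of Junb and Egr1 at 24 h depended on the libraries that set the spread. Each was lost when any 1 of the 6 libraries at 24 h was left out. For Junb the adjusted p was then 0.0834, 0.112 and 0.0670 without DMSO 24 h replicates 1, 2 and 3, and 0.0699, 0.0645 and 0.0846 without JNJ 24 h replicates 1, 2 and 3. For Egr1 it was 0.111, 0.118 and 0.0822 without the DMSO 24 h replicates, and 0.0506, 0.149 and 0.0799 without the JNJ 24 h replicates. These tests share 1 estimate of the spread with the widely spread 2 h libraries. A fit of the 6 libraries at 24 h alone, which called 44.2% of all genes, gave adjusted p = 0.00201 for Junb, 0.00568 for Egr1, 0.00109 for Jun and 0.00387 for Fos. A further fit of all 12 drug libraries took the replicate number as a block. The effect of a number was then shared by 2 h and 24 h. In that fit adjusted p at 24 h was 0.00654 for Junb, 0.0137 for Egr1, 9.52e-05 for Jun and 0.0166 for Fos.

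Fos was not called at 24 h in the fit of all 12 drug libraries, although its groups did not overlap. It stood at 5.25, 7.17 and 6.99 CPM with JNJ and at 1.63, 2.02 and 2.64 CPM with DMSO (3.10-fold, log2 1.63, SE 0.66, adjusted p = 0.0745). Fosb stood at 2.25, 2.82 and 2.89 CPM with JNJ and at 1.89, 1.43 and 0.994 CPM with DMSO, also without overlap (log2 0.89, SE 1.00, adjusted p = 0.53). Fosl2 stood at 53.7, 51.5 and 93.5 CPM with JNJ and at 42.3, 47.7 and 44.9 CPM with DMSO, again without overlap. Its change was not called (log2 0.57, SE 0.23, adjusted p = 0.0784), and with the replicate block its adjusted p was 0.0428. Fosl1 had an adjusted p of 0.253, or 0.0453 with the replicate block, on at most 11 counts in a library. With the block, 6 members were called at 24 h, Jun, Junb, Egr1, Fos, Fosl2 and Fosl1, where it called 45.8% of all genes. A block within each time, added after seeing the data, called Jun, Junb, Egr1 and Fos at 24 h, but not Fosl2 or Fosl1. It called 49.4% of all genes. The groups did not overlap for 6 of 10 members at 24 h, against 55.6% of all genes, and for 1 of 10 at 2 h, against 25.4%.

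The libraries of the remaining 3 members overlapped between JNJ and DMSO at 24 h. Jund stood at 74.9, 94.4 and 99.4 CPM with JNJ and at 76.7, 117 and 128 CPM with DMSO (log2 -0.25, interval -1.03 to 0.52). Egr2 stood at 4.74, 1.97 and 3.09 CPM with JNJ and at 3.18, 4.12 and 2.39 CPM with DMSO (log2 0.03, interval -0.84 to 0.90). Egr3 stood at 4.33, 2.06 and 2.38 CPM with JNJ and at 5.61, 2.20 and 1.96 CPM with DMSO (log2 -0.14, interval -1.43 to 1.14). Within the Jun family, Jun and Junb thus moved in opposite directions at 24 h, and Jun fell while Egr1 rose.

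**Figure D3:**
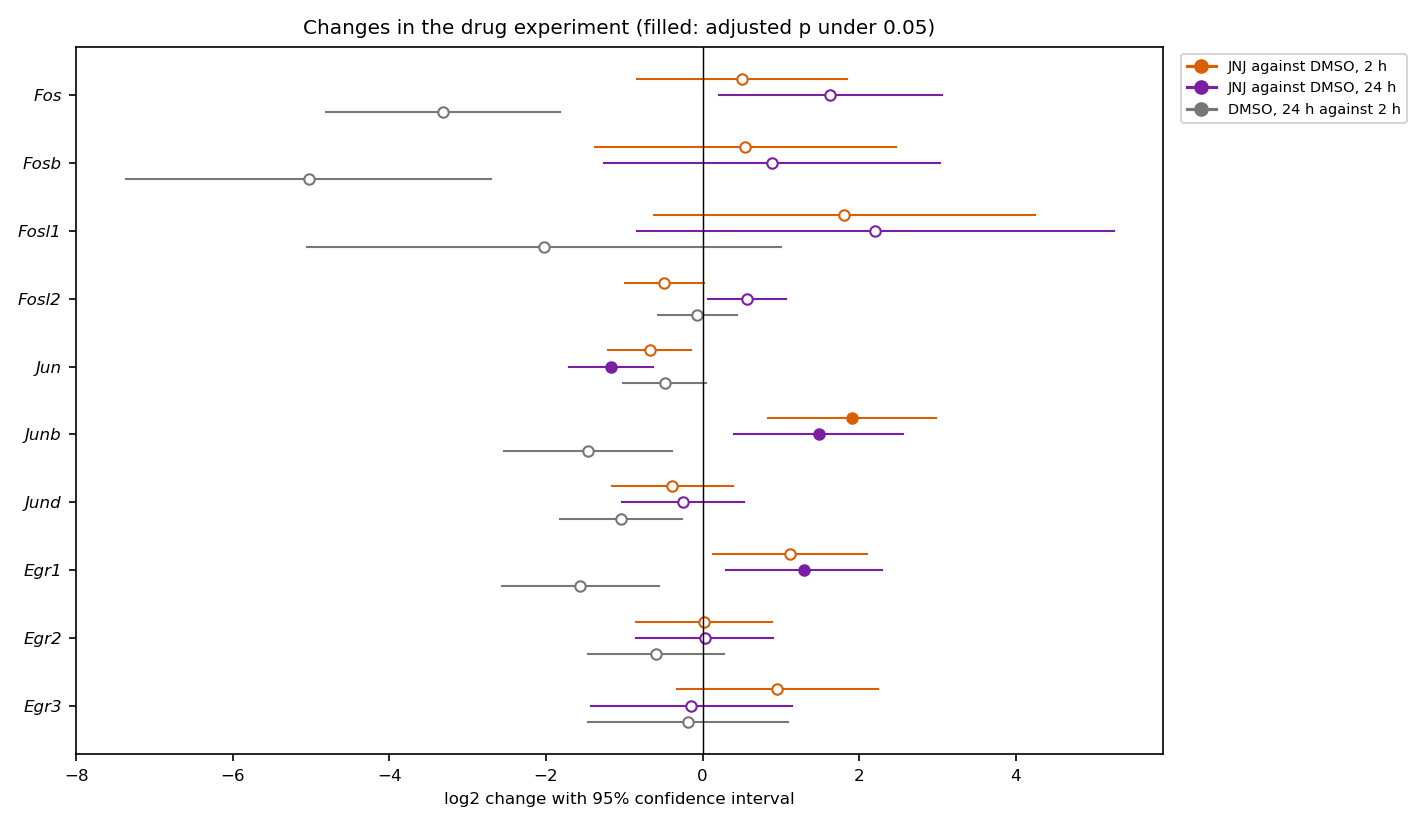
Log2 change of each member with its 95% confidence interval for JNJ against DMSO (2 h, then 24 h) and for DMSO 24 h against DMSO 2 h. Filled points have an adjusted p under 0.05 (Junb at 2 h, and Jun, Junb and Egr1 at 24 h), while the intervals are not adjusted for the number of genes.

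Whether the JNJ effect differed between the times was tested as the 24 h change minus the 2 h change. None of the 10 members was called by edgeR's quasi-likelihood test, against 4.24% of all genes. While 22% of all genes had an unadjusted p under 0.05, 1 of the 10 members did. That gene was Fosl2, whose estimates were -0.49 at 2 h and 0.57 at 24 h (difference 1.06, SE 0.33, adjusted p = 0.0844). DESeq2 called Fosl2 (adjusted p = 0.0347) among 10.1% of all genes, and without JNJ 2 h replicate 3 edgeR did too (difference 1.25, adjusted p = 0.035, 7.81% of all genes called). For Junb the difference was -0.43 (interval -1.92 to 1.06), for Egr1 0.18 (-1.19 to 1.56) and for Jun -0.50 (-1.25 to 0.25).

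DMSO 24 h was also compared with DMSO 2 h. It shares each of its groups with 1 of the JNJ comparisons. By edgeR's quasi-likelihood test 0% of all 14467 genes were called, and so 0 of the 10 members. All 10 estimates were lower at 24 h, and 5 members had an unadjusted p under 0.05 (9.79% of all genes did). DESeq2 called 2 members and 0.111% of all genes. Fos, at 1.63 to 2.64 CPM at 24 h, lay below every DMSO 2 h library (log2 -3.31, SE 0.69, adjusted p = 0.507 by edgeR and 0.000172 by DESeq2). Fosb, at 0.994 to 1.89 CPM at 24 h, overlapped with DMSO 2 h replicate 1 (log2 -5.03, SE 1.08, adjusted p = 0.507 by edgeR and 0.00375 by DESeq2). Estimates were -1.56 for Egr1, -1.46 for Junb and -1.04 for Jund, each with adjusted p = 0.507. Without DMSO 2 h replicate 1, edgeR called 0.297% of all genes and 3 members: Fos (log2 -3.82, adjusted p = 0.00576), Fosb (log2 -5.60, adjusted p = 0.00576) and Egr1 (log2 -1.97, adjusted p = 0.0429). The groups did not overlap for 4 of 10 members, Fos, Jun, Jund and Egr2, against 17.4% of all genes.

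In the hairpin experiment no member was called in any comparison by edgeR's quasi-likelihood test. The share of all 13612 genes called was 0.749% for shHdac1 against shLuc, 1.68% for shHdac2 against shLuc and 2.06% for shHdac1 against shHdac2. With replicates 1 and 2 summed, no member was called either, and the shares of all genes fell to 0%, 0.00715% and 0.0143%. That summed fit called no gene for shHdac1 against shLuc, with or without the replicate block, and so missed the lowered Hdac1 too. Its missing calls therefore say little about whether a member changed. With 3 libraries a group, unadjusted p-values were under 0.05 for 2, 4 and 2 of the 9 members tested, against 12.4%, 15.9% and 14.3% of all genes. DESeq2 called 0, 2 and 1 members, where it called 4.26%, 6.35% and 6.24% of all genes. The 2 comparisons with shLuc share its libraries. Replicate 3 of shLuc was the lowest for 8 of the 10 members, against 46.3% of all genes. It was the highest for 2 members, against 45.1% of all genes.

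Of the Jun genes, Jun stood at 114, 118 and 163 CPM in shHdac1, 126, 136 and 161 CPM in shHdac2 and 89.9, 82.6 and 115 CPM in shLuc. Only the shHdac2 libraries lay wholly above those of shLuc (log2 0.46, SE 0.17, adjusted p = 0.292 for shHdac1; log2 0.56, SE 0.17, adjusted p = 0.15 for shHdac2). With the replicate block, which called 3.84% and 5.88% of all genes, Jun was called in both (adjusted p = 0.0223 and 0.0111), and with replicates 1 and 2 summed and the block in neither (adjusted p = 0.36 and 0.299). Jund stood at 95.8, 97.3 and 152 CPM in shHdac1, 138, 168 and 167 CPM in shHdac2 and 101, 93.5 and 114 CPM in shLuc. The shHdac2 libraries again lay above those of shLuc (log2 0.62, SE 0.18, adjusted p = 0.132, with the replicate block 0.0364, with DESeq2 0.0289, with replicates 1 and 2 summed and the block 0.336). Junb stood at 6.48, 7.30 and 15.1 CPM in shHdac1, 6.62, 7.13 and 10.1 CPM in shHdac2 and 9.43, 8.84 and 3.97 CPM in shLuc, where the groups overlapped.

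Of the Fos genes, Fosl2 stood at 43.2, 50.3 and 50.8 CPM in shHdac2, above shLuc (37.9, 35.7 and 25.8 CPM) and above shHdac1 (24.3, 23.9 and 39.5 CPM). Its change was 0.54 on the log2 scale against shLuc (SE 0.22, adjusted p = 0.271), and shHdac1 minus shHdac2 was -0.72 (SE 0.22, adjusted p = 0.148, DESeq2 0.035). Without shHdac1 replicate 3, edgeR called Fosl2 and Jund lower in shHdac1 than in shHdac2 (adjusted p = 0.0323 for Fosl2, log2 -0.71 and adjusted p = 0.0306 for Jund), with 1.98% of all genes called. Fos stood at 2.32 to 4.71 CPM in shLuc, 3.79 to 9.10 CPM in shHdac1 and 3.09 to 4.48 CPM in shHdac2. Fosb stood at 0.982 to 3.23, 1.78 to 2.52 and 1.55 to 1.93 CPM in these groups, and both genes overlapped throughout.

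Of the Egr genes, Egr2 stood at 3.16, 3.19 and 2.99 CPM in shHdac1, below all shLuc libraries (6.48, 6.84 and 3.42 CPM), and at 3.62, 4.34 and 3.10 CPM in shHdac2. It was not called (log2 -0.84, SE 0.29, adjusted p = 0.255 for shHdac1; log2 -0.60, SE 0.29, adjusted p = 0.349 for shHdac2). Without shLuc replicate 3, when 11.0% and 8.78% of all genes were called, Egr2 was called lower in shHdac1 (log2 -1.10, adjusted p = 0.0141) and in shHdac2 (log2 -0.85, adjusted p = 0.0322), and Jun higher in shHdac2 (log2 0.71, adjusted p = 0.0401). Egr3 stood at 9.45, 10.4 and 7.29 CPM in shHdac2, above shLuc (6.56, 6.30 and 2.32 CPM), with log2 0.84 (SE 0.36, adjusted p = 0.306). Egr1 stood at 6.09 to 11.3 CPM in shLuc, 5.61 to 14.3 CPM in shHdac1 and 3.95 to 9.17 CPM in shHdac2, and replicate 3 was the lowest library in each. The groups did not overlap for 1 of 9 members in shHdac1 against shLuc (16.5% of all genes), 4 of 9 in shHdac2 against shLuc (21.2%) and 1 of 9 in shHdac1 against shHdac2 (26.5%).

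**Figure D4:**
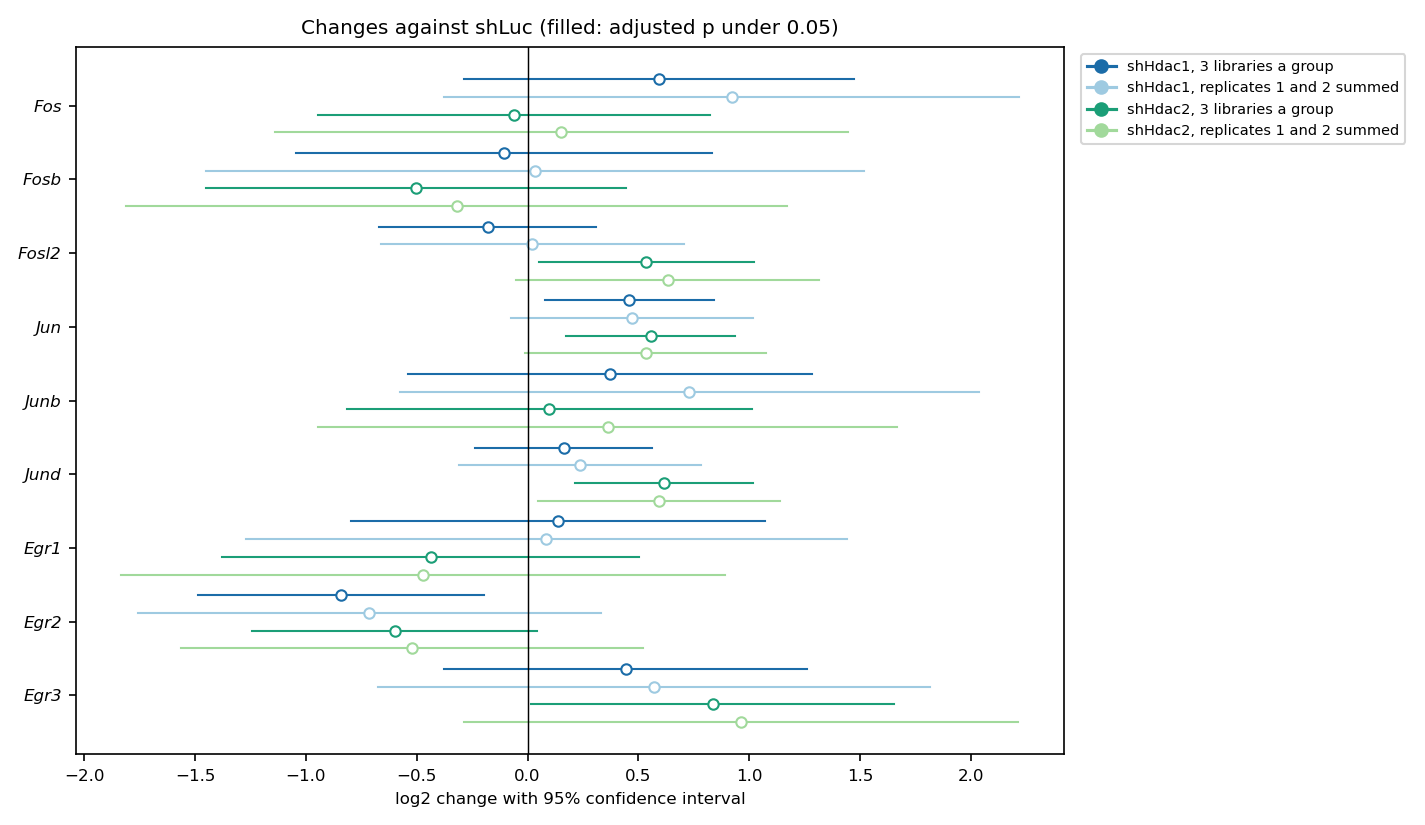
Log2 change against shLuc with its 95% confidence interval for 9 members in shHdac1 and shHdac2, with 3 libraries a group (dark) and with replicates 1 and 2 summed (light). No point has an adjusted p under 0.05, and the intervals widen when replicates 1 and 2 are summed.

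Genes around the members in the pathway were taken from lists. Of all 14467 tested genes, JNJ raised 9.11% and lowered 4.59% at 2 h, and raised 18.1% and lowered 15.1% at 24 h. Among 39 tested other immediate-early genes, JNJ raised 10 and lowered 5 at 2 h (median log2 0.30, over all genes 0.03), and raised 7 and lowered 1 at 24 h (median 0.10, over all genes 0.01). Csrnp1, which encodes a nuclear protein of the immediate-early class, rose from 4.86 ± 3.28 to 35.0 ± 12.0 CPM at 2 h (mean ± SD, n = 3; log2 2.86, adjusted p = 0.00179) and from 2.00 ± 0.455 to 13.6 ± 2.71 CPM at 24 h (log2 2.78, adjusted p = 0.000782). Per1, a clock gene, rose to 114 to 174 CPM at 2 h from 21.2 to 27.3 CPM (log2 2.49, adjusted p = 8.54e-05). At 24 h it stood at 23.3 to 31.2 CPM with JNJ and 16.5 to 22.9 CPM with DMSO, and the difference between the times was called (log2 -1.97, adjusted p = 0.00773). Gadd45g fell at 2 h (log2 -1.12, adjusted p = 0.00428). At 24 h Nr4a3, an orphan nuclear receptor gene, rose (log2 2.71, adjusted p = 0.00335) and Ier5 fell (log2 -0.81, adjusted p = 0.00312). Srf, which encodes serum response factor, was not called (log2 -0.47 at 2 h and -0.04 at 24 h, the latter above 0 with library totals or upper-quartile scaling). Egr4 (log2 0.62 and -0.90) and Nr4a1 (log2 0.70 and -0.56) were not called either.

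Of 10 tested AP-1 partners in the ATF, BATF, JDP and MAF families, 2 rose and none fell at 2 h. At 24 h, 1 rose and 2 fell, while 13.7% of all genes were called at 2 h and 33.1% at 24 h. Mafa rose at 24 h from 0.145 ± 0.0515 to 2.25 ± 0.522 CPM (log2 3.92, adjusted p = 0.00101). Atf3 was not called at either time (log2 0.16 and 0.29).

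Of 32 upstream kinases and SRF, ETS and CREB factors, 1 rose and 4 fell at 2 h, and 3 rose and 6 fell at 24 h. The share of all genes called was 13.7% at 2 h and 33.1% at 24 h. Atf1, which encodes a CREB-family factor, fell at 2 h (61.7 ± 1.20 to 15.3 ± 2.90 CPM, adjusted p = 0.000331) and at 24 h (47.1 ± 10.9 to 17.7 ± 4.01 CPM, log2 -1.40, adjusted p = 0.000668). Map2k7, the gene of a kinase that activates JNK, fell at 2 h (log2 -1.14, adjusted p = 0.0034). At 24 h Rps6ka1, the gene of the ERK-activated kinase RSK1, rose from 51.1 ± 11.3 to 199.9 ± 25.5 CPM (log2 1.98, adjusted p = 6.34e-05), and Nras fell (log2 -0.79, adjusted p = 0.00196). Elk3, an ETS repressor gene, rose at 24 h (log2 1.05, adjusted p = 0.00498).

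Of 20 MAP kinase feedback genes, 2 rose and 1 fell at 2 h, and 5 rose and none fell at 24 h. For this list and the next 2, the share of all genes called was 13.7% at 2 h and 33.1% at 24 h. Il17rd, an inhibitor of FGF and ERK signalling, rose at 24 h from 4.44 ± 1.98 to 36.6 ± 9.13 CPM (log2 3.05, adjusted p = 0.000689), and Dusp14, a phosphatase gene, rose less (log2 0.85, adjusted p = 0.00407). Of the 2 Egr co-repressor genes, none was called at 2 h and 1 at 24 h. Of 10 heat-shock genes, none was called at 2 h, and 1 rose and 3 fell at 24 h.

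Among 19 tested genes known as AP-1 or Egr targets, 2 rose at 2 h and 5 at 24 h, and none fell. Over all genes, 9.11% rose and 4.59% fell at 2 h, and 18.1% rose and 15.1% fell at 24 h. The median was 0.48 at 2 h and 0.59 at 24 h. Pdgfb, a growth factor gene and known Egr1 target, rose from 0.115 to 0.352 CPM to 1.65 to 1.99 CPM at 2 h (log2 2.75, adjusted p = 0.00414), and from 0.115 to 0.154 CPM to 1.33 to 3.49 CPM at 24 h (log2 4.02, adjusted p = 0.000258). Mmp9, a matrix protease gene with AP-1 sites in its promoter, rose at 24 h to 1.90 to 3.05 CPM from 0.0284 to 0.179 CPM (log2 4.52, adjusted p = 0.000578). Both were scarce in DMSO. The genes named from these lists kept their call with each library left out in turn, and so did Myc, which fell at 2 h. These were 7 of 15 at 2 h and 13 of 19 at 24 h, Hspd1 included, which fell. The calls of Ier2, Mafa, Mafk, Elk3, Il17rd, Dusp1, Dusp10 and Hmox1 at 2 h, and of Arc, Mafg, Jdp2, Nab1, Hspa1a and Hsp90aa1 at 24 h, were lost without 1 or more libraries.

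In the hairpin comparisons with 3 libraries a group, edgeR's quasi-likelihood test called none of the other immediate-early genes, AP-1 partners, co-repressors, targets or heat-shock genes. An unadjusted p under 0.05 was counted for shHdac1 against shLuc, shHdac2 against shLuc and shHdac1 against shHdac2, in that order. It held for 7, 6 and 5 of the 39 other immediate-early genes, against 12.4%, 15.9% and 14.3% of all genes. DESeq2 called 6, 1 and 3 of the 39, against 4.26%, 6.35% and 6.24% of all genes. By edgeR, 0.749%, 1.68% and 2.06% of all genes were called, in the same order. Of 32 tested upstream factors, Crtc1 was called lower in shHdac1 against shLuc and Atf1 lower in shHdac2 against shLuc. Of 19 tested feedback genes, Dusp14 was called lower in shHdac1, and in shHdac2 Dusp8 was called higher and Spred2 lower. Between shHdac1 and shHdac2, Atf1 and Spred2 were called higher in shHdac1 and Dusp14 lower. Each of these calls was lost without 1 or more libraries, and each was lost with replicates 1 and 2 summed. The summed fit did not call Hdac1 in shHdac1 against shLuc either. Atf1 stood at 34.1 to 39.4 CPM in shLuc, 38.9 to 46.5 CPM in shHdac1 and 23.4 to 25.6 CPM in shHdac2.

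For 4 members the genes with the most similar profile over the 7 group means were sought among 14551 genes, by the root mean square difference of centred log2 CPM. Closest to Fos were Klf2 (0.25), Becn2 (0.40) and Tex40 (0.45), and the closest member was Egr1 (0.47). Klf2, itself an immediate-early gene, stood at 2.53 to 45.4 CPM in DMSO 2 h and at 1.43 to 1.62 CPM in DMSO 24 h, a range like that of Fos. Closest to Jun were Bak1 (0.12), Tubb5 (0.13) and Pvr (0.16), and the closest member was Jund (0.47). Closest to Egr1 were Ginm1 (0.21), Tex40 (0.22) and Ly6g5b (0.25), and the closest member was Junb (0.29). Closest to Egr3 were Slc38a5 (0.13), Slc2a3 (0.14) and Ero1l (0.15), and the closest member was Jun (0.56). All these profiles share the same 21 libraries, and a small difference over 7 means is a description only.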

How the data were processed

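Messenger RNA of 21 libraries was sequenced as single-end reads of TruSeq stranded libraries, per the labels' protocols. The authors deposited 1 table of raw read counts per gene, made with STAR 2.5.1b on mm9 per the submitters' processing notes. The sources used here do not give the annotation, the strand counted or the handling of reads with several matches. Libraries held 23094799 to 39341784 counted reads.

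Counts were tested with edgeR 4.0.16 (quasi-likelihood, TMM scaling, R 4.3.3, limma 3.58.1), group only, in 1 fit of the 12 drug libraries (14467 genes) and 1 of the 9 hairpin libraries (13612 genes). The filter was filterByExpr with a minimum count of 10 and a minimum total of 15. P-values are two-sided and adjusted over all genes tested, and a gene was called under 0.05. The procedure was tested on simulated data that gave every gene of an experiment the same spread. In the drug experiment that spread was narrower than the one estimated for Fos, Fosb, Fosl1 and Junb. The simulation therefore does not show how well changes of these genes are found. CPM levels use the TMM factors of all 21 libraries, and values per kilobase divide by the union of a gene's GENCODE exons.

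Members and lists were chosen with earlier results of these data known, and 1 listed gene is not reported here. From each list, the 2 called genes with the lowest p in each direction and comparison could be named, beside 11 genes followed whether called or not. Called genes of the lists that lost their call without 1 or more libraries are given by name only, apart from the levels of Atf1 in the hairpin groups.

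Alternatives were other scalings, no filter, DESeq2 1.42.0, other sets of libraries, the replicate number as a block, and each library left out. A block within each time and the summing of hairpin replicates 1 and 2 were added after seeing the data. The block was checked by the correlation of deviations from group means over genes. For libraries of the same number it was 0.568, 0.656 and 0.610 between JNJ 24 h and DMSO 24 h, so the numbers pair these.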

Additional observations from a re-analysis of the deposited data

Results flagged for a closer look

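The JNJ effect differed between 2 h and 24 h, by the test of that difference, for 2 genes named from the lists and for none of the members. These were 1 of 39 tested other immediate-early genes (Per1) and 1 of 32 upstream factors (Rps6ka1), where 4.24% of all genes were called. For Per1 the 24 h change minus the 2 h change was -1.97 on the log2 scale (edgeR's quasi-likelihood test, adjusted p = 0.00773, n = 3 libraries a group). For Rps6ka1 it was 1.42, with 61.5 ± 12.1 against 41.9 ± 5.92 CPM at 2 h and 199.9 ± 25.5 against 51.1 ± 11.3 CPM at 24 h (SD, n = 3, JNJ first). The call of Rps6ka1 was lost without DMSO 24 h replicate 1 (log2 1.26, edgeR adjusted p = 0.0516) and without JNJ 24 h replicate 3 (log2 1.32, edgeR adjusted p = 0.0588).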

How the results depend on the processing

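With JNJ at 24 h, Jun was called lower under each alternative run, and Junb and Egr1 higher under each one that kept all libraries. The number of members called was 1 for JNJ at 2 h, 3 for JNJ at 24 h and 0 for each other comparison, and it moved by more than 1.5 times, or away from 0, as follows. Upper-quartile scaling gave 2 at 2 h (13.8% of all genes called) and 1 for the difference between the times (4.83%). Library totals gave 5 at 24 h (32.1%) and 1 for that difference (4.43%). DESeq2 gave 1 for the difference (10.1% of all genes) and 2 for the DMSO times (0.111%). It gave 2 for shHdac2 against shLuc (6.35%) and 1 for shHdac1 against shHdac2 (6.24%). A fit of the compared groups alone gave 0 at 2 h (4.79% of all genes). A fit of all 21 libraries gave 2 at 2 h (21.9%) and 1 for the difference (11.8%). The gene called for the difference was Fosl2 in each of these fits, and the gene added at 2 h was Jun. At 24 h, 4 members were called with upper-quartile scaling (32.2% of all genes), where Fosl2 joined. DESeq2 (36.9%), the compared groups alone (44.2%) and all 21 libraries (41%) also called 4, where Fos joined.

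With the replicate block, 4 members were called at 2 h (Fosl1, Jun, Junb and Egr1), 6 at 24 h, 1 for the difference, 2 for the DMSO times (Fos and Jund), 1 for shHdac1 against shLuc and 2 for shHdac2 against shLuc. At 2 h and between the DMSO times the numbers did not pair the libraries by the rule that every pair exceeds 0.1. The residual correlations of same-numbered libraries 1, 2 and 3 were -0.001, 0.652 and 0.586 at 2 h and -0.217, 0.520 and 0.576 between the DMSO times, so only replicate 1 was below it. A block within each time, chosen after seeing the data, gave 4 members at 2 h (Jun, Junb, Jund and Egr1), 4 at 24 h (Fos joined) and 2 for the difference (Fosl2 and Jun). The block left the count for shHdac1 against shHdac2 at 0. In the hairpin groups every same-numbered pair had a residual correlation above 0.1, but libraries 1 and 2 also correlated across numbers, so pairing and the near identity of these libraries cannot be told apart.

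The share of all genes called moved with the setting by over 1.5 times in these cases, beside those given with the results. DESeq2 called 10.1% for the difference between the times (4.24% by edgeR). The block called 23.9% at 2 h, 14.7% for the difference, 0.747% for the DMSO times and 6.51% for shHdac1 against shHdac2, and the block within each time 26.1% at 2 h and 17.8% for the difference. The fit of all 21 libraries called 21.9% at 2 h, 11.8% for the difference and 0.055%, 0.186% and 0.522% in the hairpin comparisons, where fits of the compared groups alone called 0.0376%, 0.141% and 4.49%. Without the filter on low counts these shares were 0.0103% for the DMSO times, 0.988% for shHdac2 against shLuc and 1.28% for shHdac1 against shHdac2. With replicates 1 and 2 summed and the block, the last was 0.00715%. The median of all genes at 24 h was 0.01 on the log2 scale, 0.12 with upper-quartile scaling and 0.17 with library totals, and for the difference -0.05, 0.13 and 0.09. Of the calls at 24 h, 54.5% were upward, 63.8% with upper-quartile scaling and 68.3% with library totals. For the difference these shares were 59.1%, 81.8% and 79.9%, and at 2 h upper-quartile scaling changed 66.5% to 54.5%.

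Estimates that changed sign with all libraries kept were at most 0.34 in size in the reported fit, none of them was called there, and the cause was not tested. For Egr2 at 2 h the log2 change of 0.017 became -0.0034 with RLE size factors, -0.060 with upper-quartile scaling, -0.018 without the filter, -0.0023 with DESeq2, -0.035 with the block and -0.051 with the block within each time. With upper-quartile scaling and with library totals, the changes at 24 h were 0.066 and 0.12 for Srf and 0.030 and 0.084 for Npas4. With library totals, Egr3 at 24 h was 0.010, Fosl2 between the DMSO times 0.030 and Hdac2 in shHdac1 -0.00079. With the block, Nab1 at 2 h was 0.0016, Egr2 at 24 h -0.053 (-0.016 with the block within each time), and the differences between the times -0.085 for Fosb (-0.51 within each time) and -0.018 for Egr2, with -0.084 for Egr1 within each time. With hairpin replicates 1 and 2 summed, the values without and with the block were 0.035 and 0.16 for Fosb and -0.038 and -0.034 for Hdac2 in shHdac1, 0.15 and 0.090 for Fos in shHdac2, and without the block 0.022 for Fosl2 in shHdac1. Summing, too, was chosen after seeing the data.

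With each library left out in turn, the members called numbered 0 to 2 for JNJ at 2 h, 1 each time at 24 h (Jun), 0 to 1 for the difference, 0 to 3 between the DMSO times, 0 to 1 for shHdac1 and 0 to 2 for shHdac2 against shLuc, and 0 to 2 for shHdac1 against shHdac2. The share of all genes called then ranged from 7.07% (without JNJ 2 h replicate 1) to 22.7% (without JNJ 2 h replicate 3) at 2 h, from 0.988% (without JNJ 24 h replicate 3) to 7.81% (without JNJ 2 h replicate 3) for the difference, and from 23.1% to 27.4% at 24 h. It ranged from 0.0145% and 0.0872% to 11.0% and 8.78% for shHdac1 and shHdac2 against shLuc, each highest without shLuc replicate 3, and from 0.217% to 1.98% for shHdac1 against shHdac2. Estimates whose sign changed ranged at 2 h over -0.042 to 1.50 for Fos, -0.30 to 1.98 for Fosb, -0.16 to 0.30 for Egr2, -0.40 to 0.97 for Atf3, -0.14 to 0.065 for Nab1 and -0.59 to 0.48 for Nab2. At 24 h they ranged over -0.35 to 0.28 for Egr2, -0.55 to 0.50 for Egr3, -0.15 to 0.023 for Srf, -0.15 to 0.28 for Dusp6 and -0.66 to 0.36 for Npas4. For the difference between the times the ranges were -1.10 to 1.18 for Fosb, -1.98 to 1.62 for Fosl1, -1.27 to 0.021 for Junb, -0.18 to 0.61 for Jund, -0.49 to 0.62 for Egr1 and -0.35 to 0.28 for Egr2, and between the DMSO times -3.26 to 0.38 for Fosl1, -0.13 to 0.0082 for Fosl2 and -0.83 to 0.18 for Egr3. The hairpin ranges were -0.49 to 0.15 for Fosb, -0.10 to 0.59 for Junb, -0.088 to 0.28 for Jund, -0.16 to 0.44 for Egr1 and -0.024 to 0.077 for Hdac2 in shHdac1, -0.32 to 0.11 for Fos and -0.20 to 0.31 for Junb in shHdac2 and -0.28 to 0.00014 for Jun and -0.21 to 0.50 for Junb for shHdac1 against shHdac2. Depth limits Fosl1, with at most 42 counts in a library, and with 3 libraries a group a missed call does not show that a member did not change.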
